A study of Mus musculus with 3 samples.

Results

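The comparison described here sets naive CD4+ T cells against CD4+ T cells that had been activated for 48 h and had gone through 2 divisions, by long-read PacBio sequencing of full-length transcripts. It takes 2 of the 3 libraries of the series, the naive one and the one of cell division 2, and describes which genes, chains of introns, first exons and 3′ ends were listed in one of them and not in the other. The naive library lists 10442 isoforms on the reference chromosomes and the 2-division library 11026. The remaining library, of cells activated for the same 48 h that had not divided, lists 12503 and is given only beside the results. Both groups were wild-type cells from spleens and lymph nodes of male C57BL/6N mice aged 6 to 10 weeks, and both began as naive CD4+ T cells isolated with a kit. The activated cells carried CellTrace Violet, a dye that is diluted at each division, were stimulated with plate-bound anti-CD3 and with anti-CD28, and were sorted on the second division peak. The study describes its unstimulated naive cells as labeled with the same dye. The naive cells went into lysis on the day of isolation without such a sort.

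There was 1 library per condition and no read count, so nothing here has a replicate or a test. An isoform is listed or not listed, the number of isoforms of a gene is not its abundance, and each statement compares libraries. Each isoform was given to the GENCODE gene of its strand with which it shared most splice sites or, failing that, most exonic bases. The naive library had isoforms of 4748 genes, of which 4626 were protein-coding, and the 2-division library of 5161 genes, of which 5064 were protein-coding. The names of the deposited data carry a cell number that differs between the naive library and both activated ones. If it is that of the sequencing cell, which the labels do not state, the effects of activation and of sequencing cell cannot be told apart. The identity markers of CD4+ T cells were present: 14 of 15 in either library, the exceptions being Cd3g, with 2 isoforms in naive cells and 0 after 2 divisions, and Bcl11b, with 0 and 1. For the markers below, the shares to compare with are those of all genes, 17.6% only in naive cells and 24.2% only after 2 divisions. Markers of B cells lay mostly on the naive side. Of 10 listed in either library, 8 were listed only in naive cells (80.0%), 2 in both and 0 only after 2 divisions. Their isoforms numbered 26 in naive cells and 5 after 2 divisions, of which Ighm alone gave 12 and 4. Among these markers Ms4a1 had 2 isoforms and Cd79b 1 in naive cells, while Cd79a, Pax5, Ebf1, Blk, Cd22 and Bank1 were listed in neither library. Whether such a pattern reflects fewer cells of a type or less RNA per cell cannot be told apart. Myeloid markers were at 4 isoforms in naive cells and 2 after 2 divisions, with Csf1r, Itgam and Cd68 in neither, and the hemoglobin gene Hbb-bs had 1 isoform in naive cells and 0 after activation. Of 5 CD8 T and NK cell markers listed, 3 were only in naive cells and 2 only after 2 divisions. Of 6 regulatory T cell markers 2 were only in naive cells, Foxp3 and Ikzf2 with 1 isoform each. The 3 only after 2 divisions were Il2ra with 6, Tnfrsf18 with 3 and Capg with 1, and Il2ra and Tnfrsf18 are also counted below among receptor genes of activated cells.

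A naive CD4+ T cell is a small resting cell that is kept alive by IL-7 and by weak contact of its receptor with self. Stimulation through the T cell receptor and CD28 starts transcription of cytokines and of the high-affinity IL-2 receptor, a growth phase in which the cell builds ribosomes, nucleotides and membrane, and then rapid divisions. The mRNA of a gene can also change in form in that transition, through use of another promoter and so another first exon, through splicing, and through cleavage and polyadenylation at another 3′ end.

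Genes were shared more than any other feature. Of 6266 genes listed in either library, 3643 were listed in both, 1105 only in naive cells (17.6%) and 1518 only after 2 divisions (24.2%). Of 12397 intron chains, which are the ordered sets of all introns of a multi-exon isoform, 4037 were in both, 3802 only in naive cells (30.7%) and 4558 only after 2 divisions (36.8%). First exons, defined by the base at which the first exon ends, numbered 8080, of which 1667 were listed only in naive cells (20.6%) and 2763 only after 2 divisions (34.2%). The 3′ ends, merged within 24 nt, numbered 10983, of which 3269 were listed only in naive cells (29.8%) and 3351 only after 2 divisions (30.5%). When the 2-division library was thinned to the isoform number of the naive one, the expected numbers were 1192 and 1460 genes, 3968 and 4329 chains, 1773 and 2636 first exons, and 3425 and 3192 ends, in the order naive and 2 divisions. The surplus on the activated side thus remained for genes, chains and first exons, and for 3′ ends it turned to the naive side. When only multi-exon isoforms were thinned, the chains turned as well, to 4178 in naive cells and 4047 after 2 divisions, while genes stayed at 1201 and 1325 and first exons at 1912 and 2477. A 3′ end was called A-rich where at least 12 of the next 20 genomic bases were A, and this applied to 32.0% of the isoforms in naive cells and 23.1% after 2 divisions. Without them, 1424 ends were listed only in naive cells and 2359 only after 2 divisions.

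**Figure D1:**
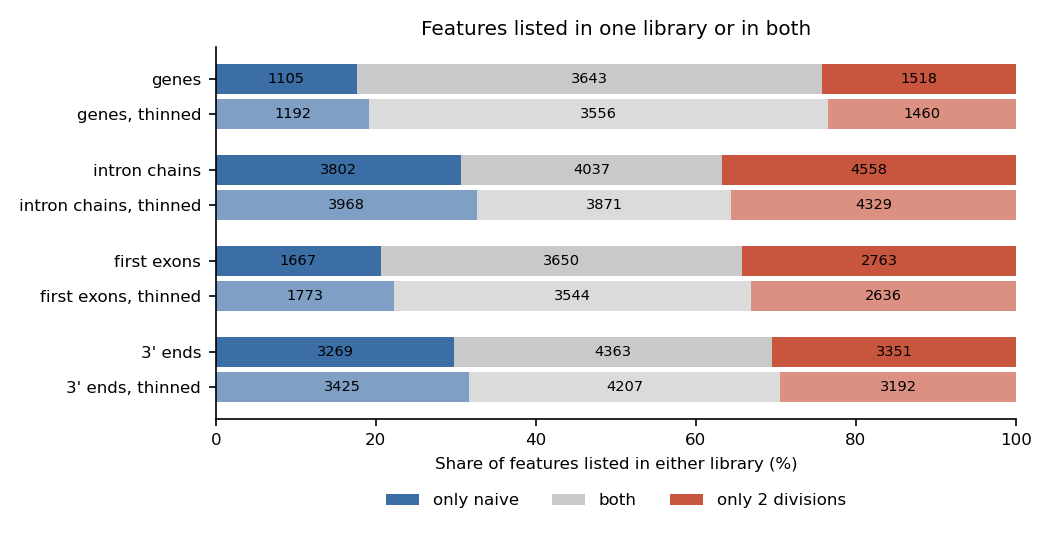
Stacked bars give the share of genes, intron chains, first exons and 3′ ends listed only in naive cells, in both libraries or only after 2 divisions, as listed and with the larger library thinned to the smaller (paler bars), with the counts printed in the bars. First exons have the largest gap between the sides, 1667 in naive cells and 2763 after 2 divisions.

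Most of these features rested on a single isoform. This held for 74.2% of the genes listed only in naive cells and 71.3% of those listed only after 2 divisions, for 95.9% and 94.5% of the chains, 83.4% and 86.4% of the first exons, and 92.2% and 89.0% of the 3′ ends. The undivided library gives a view of them from another sample. It listed 93.2% of the genes found in both libraries, 68.2% of those found only after 2 divisions and 40.6% of those found only in naive cells. For chains the shares were 88.2%, 40.4% and 21.0%, for first exons 92.4%, 49.5% and 30.2%, and for 3′ ends 89.0%, 54.6% and 23.9%, in the same order. Features of the divided cells were thus listed in undivided cells more often than features of naive cells were, and the data of undivided and divided cells carry the same cell number.

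Chains listed in one library only were also further from the annotation. Of the chains in both libraries, 79.6% were complete annotated chains. Of those only in naive cells, 32.9% were annotated, 19.3% were part of an annotated chain, 24.7% joined annotated introns in an unlisted way and 23.1% held an intron that the annotation does not list. After 2 divisions these shares were 40.7%, 28.8%, 16.0% and 14.5%. Isoforms without a gene on their strand numbered 917 in naive cells (8.78%) and 334 after 2 divisions (3.03%). In naive cells 784 of them lay opposite a gene of the other strand, 91.9% had a single exon and 92.9% an A-rich end.

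Among the 3643 genes in both libraries, 1228 had more isoforms after 2 divisions (33.7%), 1523 the same number (41.8%) and 892 fewer (24.5%), with a median difference of 0. In 330 of the 3524 genes with multi-exon isoforms in both (9.36%) the libraries had no chain in common.

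The genes with most isoforms among those listed only in naive cells were led by Gm45552 and Tcf7. Gm45552, annotated as an antisense RNA on chromosome 7, had 11 isoforms in naive cells and was listed in neither activated library. Tcf7, which encodes TCF-1, a transcription factor of naive and memory T cells, had 11, against 2 in the undivided library and 0 after 2 divisions. Il7r, the IL-7 receptor chain, had 7 in naive cells and 0 in both activated libraries. Ikzf1, which encodes the lymphoid transcription factor Ikaros, had 8, against 2 in the undivided library and 0 after 2 divisions. Several others act on small GTPases and the cytoskeleton: Akap13 had 8 isoforms in naive cells, Gmip 8, Arhgap4 6, Dock8 6 and Ripor2 6, all with 0 after 2 divisions and at most 2 in undivided cells. Pik3r1, the regulatory subunit of PI3-kinase, had 7, and Oxr1 and the pseudokinase gene Trib2 had 6 each. In all, 27 of the 1105 genes had at least 5 isoforms, and 93.2% were protein-coding.

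All 11 isoforms of Gm45552 began at the same base, chr7:45121819-45121819 on the plus strand of GRCm38, and this is the last base of the mature miR-150-3p arm. The annotated start of Gm45552 lies downstream, at base 45121917. The isoforms ended within a few bases of each other, between 45124763 and 45124767, at ends that were not A-rich, and held 1 to 5 exons. As background, a miRNA hairpin is cut out of a longer primary transcript, and miR-150 is known as a miRNA of resting lymphocytes. The start at a mature miRNA arm was then looked for in all isoforms, a search chosen after these values were seen. Starts within 2 nt of the last base were counted for 1738 mature arms in the RefSeq table. There were 12 such isoforms in the naive library, 2 in the undivided and 4 in the 2-division library. Of the 12 naive ones, 11 were the Gm45552 isoforms that had prompted the search. Within 2 nt of the first base of an arm 0 began in each library. Mir155hg is the host gene of miR-155, a miRNA known for its induction in activated lymphocytes. Its isoforms that began beside an arm numbered 0 in the naive, 1 in the undivided and 2 in the 2-division library. All began 2 nt after the last base of miR-155-3p, at base 84714204 of chromosome 16. A single isoform began 1 nt past miR-101a-3p in naive cells and in undivided cells, and 1 began 1 nt past miR-24-3p after 2 divisions. The remaining one, an isoform of the lymphotoxin gene Lta after 2 divisions, began 1 nt past miR-6974-3p. The mature arms at whose 3′ edge these isoforms began are shown from RefSeq on GRCm38.p6, 5′ to 3′, with the seed (bases 2 to 8) in capitals. They share no seed, and the arm beside Lta is named only.
miR-150-3p, chr7:45121798-45121819, plus strand, naive: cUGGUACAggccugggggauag
miR-155-3p, chr16:84714182-84714202, plus strand, activated: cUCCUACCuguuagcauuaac
miR-101a-3p, chr4:101346957-101346977, minus strand, naive and undivided: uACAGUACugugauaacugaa
miR-24-3p, chr13:63301251-63301272, plus strand, 2 divisions: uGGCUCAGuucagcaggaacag

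The genes with most isoforms among those listed only after 2 divisions were led by Zbtb32. Zbtb32, which encodes a zinc finger repressor induced in activated T cells, had 0 isoforms in the naive, 13 in the undivided and 17 in the 2-division library, the most of any gene listed in one library only. Tpx2, a spindle assembly factor, had 0, 6 and 10 in the same order. Il2ra, the CD25 chain of the high-affinity IL-2 receptor, had 0, 10 and 6, and Tnfrsf4, which encodes the costimulatory receptor OX40, had 0, 10 and 7. Bhlhe40, a transcription factor of cytokine-producing T cells, had 0, 8 and 7, Nfkb1, the precursor of the NF-kappaB subunit p50, had 0, 6 and 7, and the surface protein gene Cd200 had 0, 6 and 6. Top2a, topoisomerase II alpha, and Pclaf, a partner of PCNA at replication forks, each had 0, 5 and 6. The lincRNA Gm42047 on chromosome 8 had 0, 14 and 7, but 6 of its 7 isoforms after 2 divisions had A-rich ends and all 7 a single exon. Safb2 had 0, 5 and 6, and Slc43a3 had 0, 2 and 6. Of the 1518 genes listed only after 2 divisions 25 had at least 5 isoforms, and 96.7% were protein-coding.

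Among genes listed in both libraries, the extremes were as follows. The largest deficits after 2 divisions were at Dgka, with 36 isoforms in naive cells and 4 after 2 divisions, and at Arhgap45, with 28 and 4. The RNA helicase gene Ddx5 had 20 and 7, the splicing regulator gene Mbnl1 14 and 2, and the phosphatase gene Inpp4b 13 and 2. Traf3ip3 had 13 and 2, Ablim1, an actin-binding protein gene, 14 and 4, and Foxp1, a transcription factor of T cell quiescence, 15 and 5. The largest surpluses after 2 divisions were at the following 8 genes. Hspa9, a mitochondrial chaperone, had 3 isoforms in naive cells and 19 after 2 divisions, and Hsp90b1, a chaperone of the endoplasmic reticulum, 3 and 16. Pkm, pyruvate kinase, had 3 and 19, the nucleolar proteins Ncl and Nop56 had 4 and 18 and 9 and 22, and the elongation factor Eef2 had 3 and 15. The effector protease gene Gzmb had 1 and 13, and Set, a histone chaperone, 2 and 14.

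**Figure D2:**
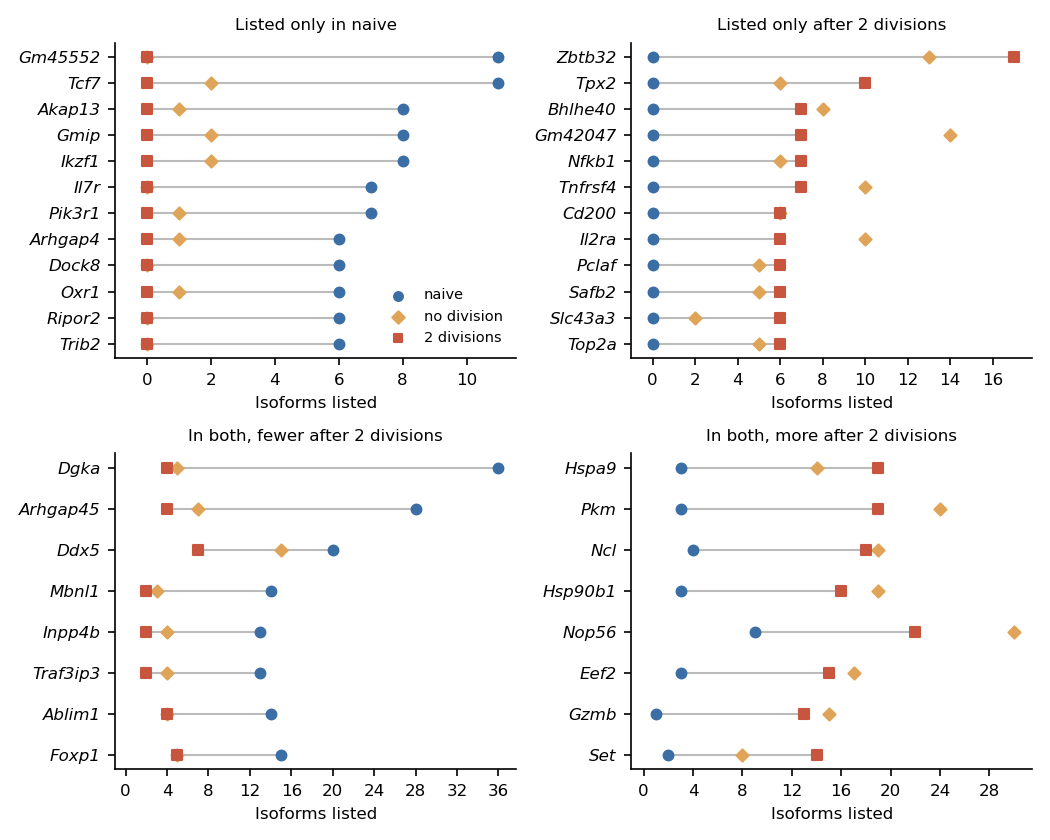
Points give the number of isoforms listed per gene in naive cells (circles), undivided cells (diamonds) and cells of 2 divisions (squares) for the 12 genes with most isoforms listed in one of the libraries only and the 8 with the largest difference in each direction among genes in both. In the undivided library Gm45552 and Il7r are at 0 like after 2 divisions, and Zbtb32 is at 13.

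Gene lists of known function were then counted. The clearest side was taken by the cell cycle. Of 39 genes of mitosis and cytokinesis listed in either library, 32 were listed only after 2 divisions (82.1%, against 24.2% of all genes), 7 in both and 0 only in naive cells. Their isoforms numbered 16 in naive cells and 110 after 2 divisions, and the median difference per gene was 2, against 0 for all genes in either library. Cyclins and kinases that drive entry into mitosis were among them: Ccnb1 had 0 isoforms in naive cells and 5 after 2 divisions, Cdk1 0 and 2, and Aurkb 0 and 4. So were the spindle and midzone proteins Kif23, with 0 and 3, and Nusap1, with 0 and 4, and the condensin subunits Ncapg, with 0 and 4, and Ncapd2, with 0 and 3. The exception was Smc4, a condensin core subunit, with 9 isoforms in naive cells and 8 after 2 divisions. In the undivided library 38 of the list's genes were listed, with 118 isoforms.

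DNA replication genes were less one-sided. Of 41 listed, 15 were only after 2 divisions (36.6%, against 24.2% of all genes), 26 in both and 0 only in naive cells. Their isoforms numbered 37 in naive cells and 98 after 2 divisions. All 6 subunits of the MCM2-7 helicase were in both libraries: Mcm2 had 1 isoform in naive cells and 5 after 2 divisions, Mcm3 1 and 5, Mcm4 1 and 4, Mcm5 1 and 2, Mcm6 1 and 2, and Mcm7 2 and 5. Factors that load and fire the helicase were mixed. Cdc6 was at 0 and 4, Cdc45 at 0 and 2, Gins1 at 0 and 2 and Mcm10 at 0 and 2, while Cdt1 was in both at 1 and 2, Orc2 at 2 and 3, Gins4 at 1 and 1 and Cdc7 at 1 and 3, and Dbf4 was in neither. The sliding clamp gene Pcna had 2 and 5, and Uhrf1, which guides maintenance of DNA methylation, 0 and 3.

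The genes that supply growth had 0 members listed only in naive cells in each of 4 lists. Of all genes 17.6% were only in naive cells and 24.2% only after 2 divisions. Of 31 genes of nucleotide and one-carbon synthesis 8 were only after 2 divisions (25.8%), close to the share of all genes, while their isoforms numbered 34 in naive cells and 103 after 2 divisions. The serine-to-folate enzyme gene Shmt2 had 2 and 10, Mthfd2 1 and 7, Gart 2 and 9, Rrm2, a subunit of ribonucleotide reductase, 1 and 8, and thymidylate synthase, Tyms, 0 and 3. Of 19 genes of nutrient transport and polyamine synthesis 6 were only after 2 divisions (31.6%). These were the transferrin receptor gene Tfrc, with 5 isoforms, Odc1, the first enzyme of polyamine synthesis, with 4, the lactate exporter gene Slc16a3 with 3, Slc7a5, which carries large neutral amino acids, with 2, Dohh with 2 and Slc7a1 with 1. Of 25 genes of sterol and lipid synthesis 10 were only after 2 divisions, among them Hmgcs1 with 4 isoforms, Cyp51 with 5 and the fatty acid synthase gene Fasn with 4. Idi1, an enzyme of isoprenoid synthesis, was in both, with 1 isoform in naive cells and 5 after 2 divisions. Of 27 genes of the mitochondrial ribosome and import 7 were only after 2 divisions (25.9%), again close to the share of all genes, and the chaperonin gene Hspd1 had 4 and 12.

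Regulators of the resting state were mixed at the level of genes and lopsided in isoforms. Of 25 quiescence and antiproliferative genes 6 were only in naive cells, against 17.6% of all genes, and 4 only after 2 divisions, with 98 isoforms in naive cells and 33 after 2 divisions, of which Dgka alone gave 36 and 4. Pik3ip1, an inhibitor of PI3-kinase, had 4 isoforms in naive cells and 0 after 2 divisions, and the kinase inhibitor genes Cdkn1b and Cdkn1a lay on opposite sides, with 1 and 0 and with 0 and 1. Txnip, an inhibitor of glucose uptake, and Tsc22d3, a glucocorticoid-induced regulator, had 6 and 1 each. Klf2, Foxo1 and Foxo3 were in neither library. Of 16 transcription factors of the naive state 5 were only in naive cells (31.2%), namely Tcf7, Ikzf1, Nfatc1 with 3 isoforms, Id2 with 2 and Ikzf2 with 1. Id2 is also in the list of activation-induced factors and Ikzf2 among the regulatory T cell markers, so these 2 are not particular to the naive state. Runx3 and Bcl11b, with 1 isoform each, were the 2 only after 2 divisions (12.5%, against 24.2% of all genes). Lef1, the partner of TCF-1, had 15 in the naive, 8 in the undivided and 5 in the 2-division library, while the chromatin organizer gene Satb1 had 7, 10 and 7.

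Components of T cell receptor signaling had, after the naive transcription factors, the largest share of genes on the naive side among the functional lists. Of 34 listed 9 were only in naive cells (26.5%, against 17.6% of all genes) and 1 only after 2 divisions (2.94%, against 24.2%). Of the 34, 24 had fewer isoforms after 2 divisions, 6 more and 4 the same number. The isoforms numbered 183 in naive cells and 100 after 2 divisions, with a median difference of -2, and Dgka, which is in this list too, gave 36 and 4 of them. Among the 9 were Themis, which sets receptor signal strength, with 5 isoforms in naive cells, Rasgrp1, the Ras activator downstream of diacylglycerol, with 4, Cd3g with 2, Pag1 with 2, Cbl with 2, and Plcg1, Sla2 and Sit1 with 1 each. Undivided cells listed Themis with 2, Rasgrp1 with 1 and Cbl with 2. Among the receptor-proximal kinases Fyn was in neither library, and Lck and Zap70 were in both: Lck had 13 isoforms in naive cells and 8 after 2 divisions, and Zap70 2 and 3. The adaptors Lat and Lcp2 had 13 and 9 and 3 and 5, and Ptprc, the CD45 phosphatase, 26 and 21.

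The genes of cytokine sensing differed receptor by receptor. Of 32 cytokine receptors and signaling genes 3 were only in naive cells (9.38%, against 17.6% of all genes) and 7 only after 2 divisions (21.9%, close to the 24.2% of all genes). On the naive side were Il7r with 7 isoforms, Il6st, the shared chain of the IL-6 receptor family, with 3, and Ifngr2, a chain of the interferon gamma receptor, with 3. On the activated side were Il2ra with 6, Il12rb2, the inducible chain of the IL-12 receptor, with 4, Il15ra with 4, Stat2 with 3, Jak2 with 2, Il12rb1 with 1 and Socs2 with 1. The common gamma chain gene Il2rg had 8 isoforms in each library, Il2rb 2 in naive cells and 5 after 2 divisions, and Stat5a 1 and 8, while Jak1 had 9 and 1.

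Cytokine and effector genes were few. Of 14 listed 2 were only in naive cells (14.3%, against 17.6% of all genes) and 6 only after 2 divisions (42.9%, against 24.2%). Il2 had 0 isoforms in naive cells and 3 after 2 divisions, Il3 0 and 2, Lif 0 and 2, and Ifng, Fasl and Mif 0 and 1 each. Prf1, which encodes perforin, had 3 in naive cells and 0 after 2 divisions, and Gzma 1 and 0, while Il4, Il17a, Il21 and Csf2 were in neither library. Of 20 transcription factors known to follow activation 7 were only after 2 divisions (35.0%, against 24.2% of all genes), led by Bhlhe40 and Nfkb1 with 7 isoforms each, Irf4 with 3 and Atf3 with 3. The 2 only in naive cells were Batf with 2 and Id2 with 2. The alternative NF-kappaB gene Nfkb2 had 3 and 10, and Fos 9 and 1. Tbx21, which encodes T-bet, had 0 and 2, and Egr1 and Egr2 were in neither.

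Costimulatory and inhibitory receptor genes numbered 30, of which 8 were only after 2 divisions (26.7%, close to the 24.2% of all genes) and 2 only in naive cells (6.67%, against 17.6%). Beside Tnfrsf4 and Cd200, the 8 held the 4-1BB gene Tnfrsf9 with 4 isoforms, Tigit with 4, the GITR gene Tnfrsf18 with 3, the PD-1 gene Pdcd1 with 2, and Cd80 and Cd226 with 1 each. The 2 on the naive side were Vsir, which encodes the checkpoint receptor VISTA, with 2, and Cd274 with 1. Of 17 homing and adhesion genes 3 were only in naive cells (17.6%, the same share as of all genes) and 1 only after 2 divisions (5.88%, against 24.2% of all genes). Itga4, the alpha 4 integrin chain, had 4 isoforms in naive cells and 0 after 2 divisions, Ccr9 2 and 0, and Icam2 2 and 0, and S1pr1, the receptor by which T cells leave lymph nodes, had 9 and 1.

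The remaining lists were less one-sided than mitosis, beside 17.6% of all genes only in naive cells and 24.2% only after 2 divisions. Of 37 interferon response genes 6 were only in naive cells (16.2%) and 5 only after 2 divisions (13.5%), with 123 and 107 isoforms. Mx1 had 0 isoforms in naive cells and 4 after 2 divisions, and Slfn8 3 and 0. Of 30 lysosome and autophagy genes the counts were 4 (13.3%) and 3 in the same order. Of 23 apoptosis genes 0 were only in naive cells and 6 only after 2 divisions (26.1%), among them Mcl1 with 2, while Bcl2l1, which encodes Bcl-xL, had 1 isoform in naive cells and 5 after 2 divisions. Of 27 T cell genes known for alternative splicing 5 were only in naive cells (18.5%) and 2 only after 2 divisions (7.41%).

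**Figure D3:**
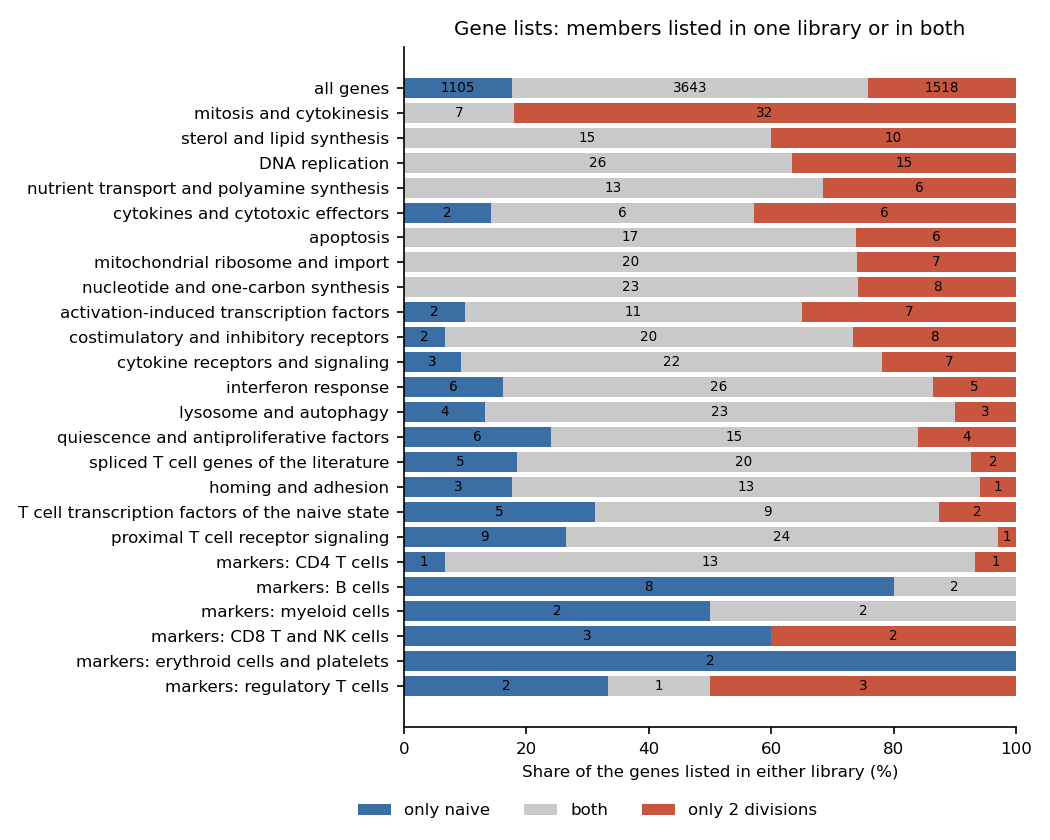
Each bar gives the share of a list's genes, among those listed in either library, that were only in naive cells, in both or only after 2 divisions, with the number of genes in the bar. The mitosis bar is 82.1% on the activated side, against 24.2% for all genes at the top, and the B cell marker bar is 8 of 10 on the naive side.

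Annotated first exons were compared next. Whether an isoform began at a promoter or is a transcript shortened at its 5′ end was not tested. Of 1147 genes with at least 2 isoforms from an annotated first exon in each library, 4 had no such first exon in common (0.349%): Elmo1, Plgrkt, Acin1 and Gtf2e2. Elmo1, a subunit of a Rac exchange factor, had 3 isoforms in naive cells, all from the first exon that ends at base 20090771 of chromosome 13, and 2 after 2 divisions, both from the one that ends at 20185504, which lies 94733 nt downstream. Undivided cells had 0 and 2 isoforms from these. The isoforms after 2 divisions began between 20185342 and 20185402, around the first base of the second exon of the naive form, 20185354. Of the 4 isoforms of both activated libraries 2 began upstream of that base and 2 at or inside the exon. In the annotated transcript that holds each of these first exons, the start codon lies after that exon. Whether the isoforms after 2 divisions hold the start codon of the longer form was not tested. The junctions of the first exon (lower case) with the next one (capitals) are shown, 15 nt from each side, plus strand of GRCm38.
Elmo1 naive, chr13:20090757-20090771 with chr13:20185354-20185368: tgagaccccgggcagGTTTAGACACGTGTG
Elmo1 2 divisions, chr13:20185490-20185504 with chr13:20208134-20208148: atggagattgaccagAAAAAGCCACTGTCT
Plgrkt, a plasminogen receptor gene, began at 1 first exon in 3 naive isoforms and at 2 other first exons in 1 isoform each after 2 divisions, the nearest 5409 nt away. The isoforms from the nearest one began inside an internal exon of 2 of the naive isoforms. Acin1, which encodes the splicing-associated protein acinus, had 2 naive isoforms from its upstream first exon and 2 after 2 divisions from first exons at least 32789 nt further on, and undivided cells had 2 from the upstream one. At the Acin1 first exon that ends at base 54643941, the 2 starts in the activated libraries lay inside an exon that 1 undivided isoform held internally. Gtf2e2, a subunit of the general transcription factor TFIIE, had 2 isoforms in each library from first exons only 141 nt apart, and undivided cells had 1 and 2.

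First exons listed on one side only, beside another that both libraries listed, were as follows. In genes with at least 3 isoforms from annotated first exons in the other library, 5 first exons were held by at least 3 isoforms after 2 divisions and 0 in naive cells, and none in the opposite direction. This count and its genes were chosen after values had been seen. The number of first exons that could have met it in each direction is not given, so the 2 directions cannot be set against a share. All 5 were also listed in undivided cells. Traf1, an adaptor of TNF receptors, had 3 isoforms in naive cells, all from its upstream first exon. After 2 divisions 6 isoforms began there and 7 began at a first exon 3565 nt downstream, and in undivided cells 9 and 8. The downstream first exon ends where an internal exon of the longer form ends, and all 15 isoforms that began there started upstream of the first base of that internal exon, 34958106. The transcripts annotated with either first exon and found here encode a protein of the same annotated length, 409 residues. Fyb, an adaptor of integrin activation in T cells, had 8 naive isoforms from one first exon, and after 2 divisions 3 from it and 4 from a first exon 58133 nt upstream, which undivided cells held in 4 isoforms. The upstream exon joins base 6579921, inside the first exon of the naive form, and the annotated start codon lies inside the first exon of either form. Lrmp, which encodes a membrane protein of the endoplasmic reticulum, had 4 naive isoforms from one first exon, and 5 from it and 3 from another 6375 nt upstream after 2 divisions. Gnas, which encodes the stimulatory G protein alpha subunit from an imprinted locus, had 3 naive isoforms from the first exon of that subunit, and 5 from it and 4 from one 2493 nt upstream after 2 divisions, and every Gnas isoform had an A-rich end. For Pabpc1 the 3 isoforms lay 9109 nt inside the gene, from an annotated first exon whose transcripts have no annotated start codon, and all 6 in both activated libraries began inside an exon that longer Pabpc1 isoforms hold internally. The junctions that tell the forms of Traf1, Fyb and Lrmp apart are shown in the same way.
Traf1 both libraries, minus strand, chr2:34961524-34961538 with chr2:34960873-34960887: gaaggcggcgcacagTGTGAGAAGAGAGAG
Traf1 activated only, minus strand, chr2:34957959-34957973 with chr2:34956266-34956280: ctctgagaacctgagAGATGATGAGGATCG
Fyb both libraries, plus strand, chr15:6581032-6581046 with chr15:6619594-6619608: ctgactctgcaaacaGTGCCACCAAAAGCC
Fyb activated only, plus strand, chr15:6522899-6522913 with chr15:6579921-6579935: tttccaataaacatgGATGGAAAAACAGAT
Lrmp both libraries, plus strand, chr6:145122092-145122106 with chr6:145137460-145137474: ccaggggcgttcagtATGCCTGTGTCTTGA
Lrmp activated only, plus strand, chr6:145115717-145115731 with chr6:145137460-145137474: ctaaacctctgaactATGCCTGTGTCTTGA
The pair of Lrmp junctions shares its second part, since both first exons join the same exon.

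Splicing was compared intron by intron. Of 4622 introns that at least 3 isoforms of each library reached over and at least 3 used, 10 were used by at least 3 isoforms in naive cells and by 0 after 2 divisions (0.216%), and 6 in the opposite direction (0.130%). The 16 introns lay in 11 genes. Of the 6 toward 2 divisions 5 were annotated and 5 were used in undivided cells, and of the 10 toward naive cells 4 were annotated and 3 used in undivided cells.

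Gas5, a noncoding host gene of small nucleolar RNAs, was the clearest case of intron retention. In naive cells 4 isoforms were listed, and all 4 retained the introns chr1:161036015-161036207 and chr1:161036580-161036819. After 2 divisions 4 of 11 isoforms had spliced the former and 6 of 11 the latter, and in undivided cells 3 and 4 of 11. The spliced junction of the latter intron, plus strand, with the downstream exon in capitals, reads as follows.
Gas5: ccagaaaatgaaatgGTGGAGTTTGAGGCT
Nop56, a host of small nucleolar RNAs as well, had an intron at chr2:130277315-130277475 that 3 of 22 isoforms used after 2 divisions, 4 of 30 in undivided cells and 0 of 9 in naive cells. It no longer met the criterion when A-rich ends were left out.

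U2af2, the large subunit of the splicing factor that reads the 3′ splice site, differed at a 5′ splice site. All 3 naive isoforms left the exon before base 5075228 of chromosome 7, while after 2 divisions 4 of 6 went on for 12 nt to an annotated donor with the less common ends GC-AG and the other 2 used the former site. In undivided cells 2 of 5 used the GC donor. The annotated proteins of the short and the long form found here are 471 and 475 residues long. In the window chr7:5075219-5075248, plus strand, the 12 nt that the long form adds are in capitals.
U2af2: gccacgctgGTGAGCCTCCCGgcacgtcat
Ncln, which encodes a membrane protein of the endoplasmic reticulum, began at separate first exons. In naive cells 3 of 3 isoforms used an unannotated first intron from a first exon that ends at base 81498432 of chromosome 10, and after 2 divisions and in undivided cells 3 of 3 began at the annotated first exon that ends at 81496080. Tmc6 had a switch in each direction. After 2 divisions 3 of 5 isoforms, and in naive cells 0 of 6, used an unannotated donor 12 nt from the annotated one. In naive cells 3 of 6 isoforms, and 0 of 5 after 2 divisions, used the acceptor-side end of an annotated intron that lies 16 nt from the one all 5 used after 2 divisions.

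Toward naive cells, Mndal, an interferon-inducible gene of the HIN-200 family, held the largest extra exon. An unannotated exon of 1344 nt, chr1:173868200-173869543, was in 4 isoforms in naive cells and in 0 of the other libraries, where 8 of 8 isoforms after 2 divisions and 7 of 7 in undivided cells skipped it, as did 9 in naive cells. Neither intron met the criterion when A-rich ends were left out. Dgka had an unannotated exon of 222 nt, chr10:128727059-128727280, in 3 of 32 naive isoforms, against 0 of 3 after 2 divisions and 0 of 5 in undivided cells, and Arhgap45 an unannotated donor in 3 of 19 against 0 of 3. On the activated side only these 3 isoforms of each gene reached over the introns. Add3, an adducin of the membrane skeleton, used the annotated intron chr19:53203476-53216800 in 3 of 11 naive isoforms and 0 of 3 after 2 divisions. In undivided cells 0 isoforms reached over this intron, and it no longer met the criterion when A-rich ends were left out. Ap2m1, the medium chain of the clathrin adaptor AP-2, used an annotated acceptor in 3 of 4 naive isoforms and 0 of 5 after 2 divisions, where all 5 were placed 7 nt further upstream. That placement gives an intron without the usual AG at its end (GT-CC), and how far the placement depends on the alignment was not tested. The last, in Ighm, the heavy chain gene of B cell IgM, was used by 3 of 10 naive isoforms and 0 of 3 after 2 divisions. In undivided cells 1 of 4 isoforms used it. It no longer met the criterion when A-rich ends were left out, and Ighm is itself one of the B cell markers given above.

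Of 1222 genes with at least 2 multi-exon isoforms in each library, 12 shared no 3′ end. The main end of a library was the one with most isoforms, ties going to the more distal. Where all ends held 1 isoform, it was thus the most distal one, and the direction depends on that rule. In 8 of the 12 the main end lay further downstream in naive cells (0.655%) and in 4 further downstream after 2 divisions (0.327%). At least one main end was A-rich in 8 of the 12 genes, and when isoforms with A-rich ends were left out, 0 of 877 comparable genes were without a shared end. None of the 12 was among these 877, since each kept fewer than 2 isoforms in at least one library, so that count says nothing about whether they share an end. Except in Gimap5 and Arhgap17, the main end of at least one library rested on 1 isoform. Gimap5, a GTPase needed for survival of naive T cells, was the only one with all isoforms at a single end on each side. Its 2 naive isoforms ended at base 48754198 of chromosome 6, where the genome is A-rich, and its 2 isoforms after 2 divisions ended 613 nt upstream at base 48753585, which lies 11 nt after the start of an AATAAA signal. The naive end lay 12 nt from an annotated end, and the end after 2 divisions 625 nt. In undivided cells 1 isoform had the downstream and 2 the upstream end. Far1, which makes fatty alcohols for ether lipids, had its main end 1786 nt further downstream in naive cells, Tbc1d1, a regulator of glucose transporter traffic, 1276 nt and Pcmt1, a protein repair enzyme, 840 nt, each with an AATAAA signal before the naive end. The 3 naive Pcmt1 isoforms had 3 separate ends, and those at bases 7637737 and 7639212 of chromosome 10 lay upstream of all Pcmt1 ends after 2 divisions. Sppl2a, an intramembrane protease, ended 604 nt further downstream after 2 divisions, and 9930111J21Rik2 701 nt. In Arhgap17 and Elmo1 the main naive end lay 107 and 102 nt further downstream, and in Prpf18 that after 2 divisions 55 nt. The main ends of Arhgap17 lay 1 nt from an annotated end in naive cells and 2 nt after 2 divisions, where the end was A-rich. In Ly75, Ufl1 and Trip11 the main ends lay in separate terminal exons. The windows before the ends of Gimap5 and Tbc1d1 are shown on the plus strand with the signal, where there was one, in capitals, and that of Tbc1d1 after 2 divisions is moved upstream to hold its signal.
Gimap5 naive, chr6:48754169-48754198: acattgttctcctgaatccttcagctattt
Gimap5 2 divisions, chr6:48753556-48753585: tttaaatacagttagattaAATAAAggatg
Tbc1d1 naive, chr5:64351451-64351480: aagaaaagagcAATAAAacagattattcac
Tbc1d1 2 divisions, chr5:64350166-64350195: catgAATAAAttacatttatggttcctcct

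Single 3′ ends of at least 3 isoforms in one library and 0 in the other, in genes with at least 3 isoforms in that other library, numbered 4 after 2 divisions and 7 in naive cells. They too were chosen after values had been seen, and they too lack a number of eligible ends to be set against. The 4 were in Cd5, Eif4a2, Cast and Nop58 and were all listed in undivided cells. The end in Nop58 was A-rich, and no AATAAA or ATTAAA signal was found before those in Nop58 and Cast. Those in Nop58 and Cast each lay 1 nt from an annotated end, that in Eif4a2 117 nt and that in Cd5 246 nt. Cd5, an inhibitory coreceptor of the T cell receptor, had 3 of 16 isoforms after 2 divisions and 4 in undivided cells at an end 764 nt downstream of the end most used in naive cells, where 7 of 10 naive isoforms ended. Eif4a2, a translation initiation helicase, had 3 of 11 after 2 divisions and 7 in undivided cells at an end 132 nt upstream of the one at which all 9 naive isoforms ended. The 7 naive ends were in Sp100, Fyb, Slc44a2, Foxp1, Srsf3, Trim26 and Add3, each with 3 isoforms, and 3 of them, in Fyb, Srsf3 and Trim26, were listed in undivided cells. Those of Sp100, Slc44a2 and Foxp1 were A-rich, at 5261, 0 and 3790 nt from an annotated end. The other 4 stood after an AATAAA or ATTAAA signal. The distance from the naive end to the end most used after 2 divisions ranged from 532 nt in Trim26 to 142121 nt in Foxp1, and was 596 nt in Srsf3, 1862 nt in Add3, 11448 nt in Slc44a2, 13749 nt in Fyb and 27504 nt in Sp100. The activated end of Eif4a2 and the naive end of Add3 are shown, plus strand, with the signal in capitals.
Eif4a2 2 divisions, chr16:23113784-23113813: atttattcAATAAAgtatttaattagtgct
Add3 naive, chr19:53247051-53247080: ttaatgttaaatcacAATAAAcggtatttt

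**Figure D4:**
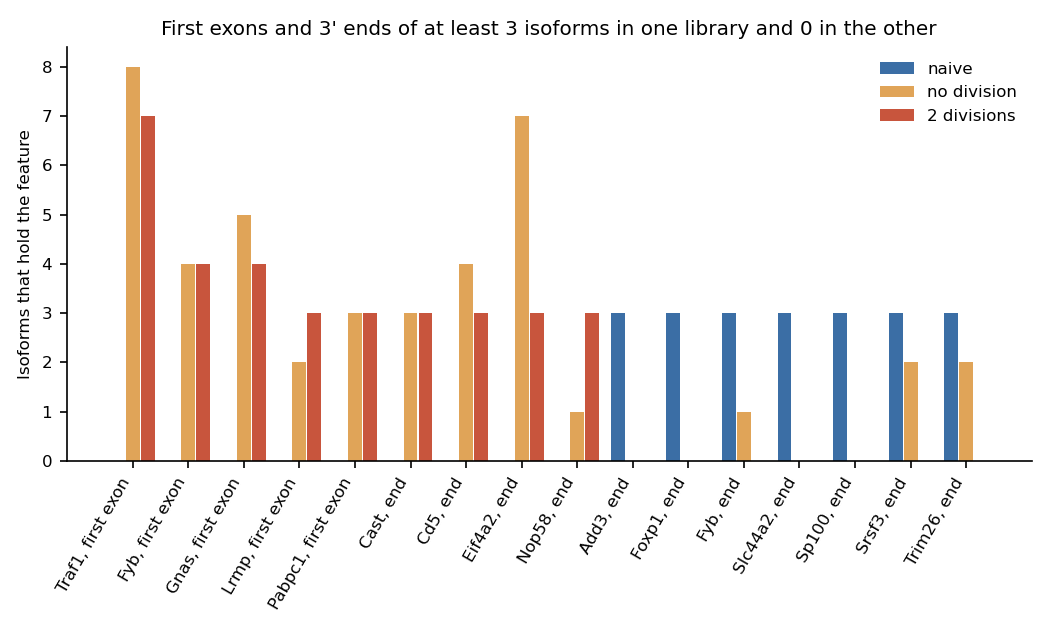
Bars give the number of isoforms in naive cells, undivided cells and cells of 2 divisions that hold each first exon or 3′ end found in at least 3 isoforms of one compared library and 0 of the other. The Traf1 first exon leads with 7 isoforms after 2 divisions and 8 in undivided cells, and each of the naive ends has 3 isoforms.

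**Figure D5:**
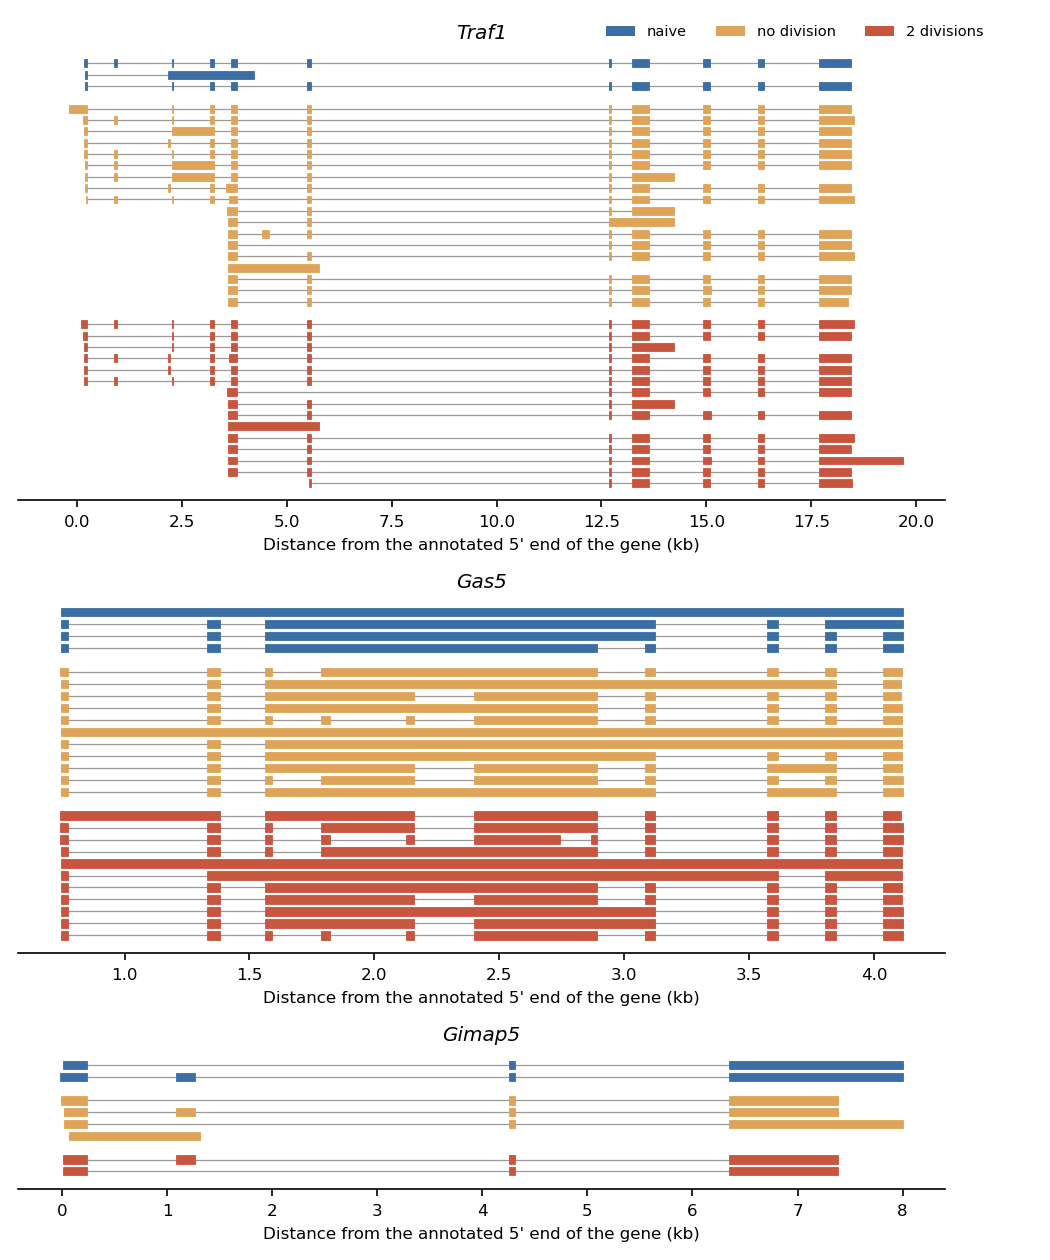
Isoforms of Traf1, Gas5 and Gimap5 are drawn 1 per row, exons as boxes and introns as lines, against distance in kb from the annotated 5′ end of the gene, by library. In Traf1 1 more isoform after 2 divisions begins near the downstream first exon but retains the intron behind it. The 7 Traf1 isoforms from the downstream first exon, the Gas5 introns retained in all 4 naive isoforms and the 613 nt between the Gimap5 ends can be read from the rows.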

How the data were processed

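Full-length cDNA of 3 libraries was sequenced on a PacBio Sequel, of which the naive and the 2-division library were compared. Per the study's methods, the authors ran ccs for consensus reads, lima for primer removal, isoseq3 for clustering, pbmm2 for mapping and SQANTI3 for annotation. The submitters' notes on processing list minimap2, Subread, GRCm38 and mm10. The deposited files used here hold positions of exons per isoform, with no counts, scores or depth in reads, so the depth is unknown and no interval is given: listed isoforms are not sampled molecules.

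Isoforms on the reference chromosomes were assigned to genes of GENCODE M21 (GRCm38; the study's methods name M25) on the same strand by shared splice sites. A gene, intron chain, first exon (its last base) or 3′ end (merged within 24 nt) was listed or not listed in a library. Splice switches needed at least 3 isoforms using an intron in one library, 0 in the other and at least 3 isoforms of each reaching over it. First-exon and end switches needed at least 2 isoforms in each library and no shared one. Poly(A) signals AATAAA and ATTAAA were searched in the last 50 nt. Totals were also thinned to the smaller library by the exact hypergeometric expectation. Gene counts, their thinning, splice switches and end switches were tested on naive isoforms with planted changes. First-exon switches were tested only by comparing a set of isoforms with itself, and the other steps were not tested on simulated data. Python 3.11.15, samtools 1.23.1 and matplotlib 3.10.9 were used; sequences came from the GRCm38 genome and RefSeq tables.

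Genes named were the 12 with most isoforms listed in one library only, the 8 with the largest difference in each direction among genes in both, the list members that were listed in one library or had most isoforms, and the genes of each kind of switch. Members and lists were chosen with earlier results of these data known. Starts beside miRNAs, features of at least 3 isoforms in one library and 0 in the other, and the counts of list genes with 2 isoforms were chosen after seeing the data, as were list members named for contrast. Some genes are not reported here.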

Additional observations from a re-analysis of the deposited data

How the results depend on the processing

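Of 84 values under alternative settings, 56 stayed within 1.5 times the reported count and 28 did not. Support decided most: features held by at least 2 isoforms and listed only in naive cells or only after 2 divisions numbered 285 and 436 genes, 155 and 249 chains, 277 and 375 first exons, and 255 and 369 ends. With annotated first exons only, 1829 were listed only after 2 divisions. Thinned multi-exon isoforms gave 4178 chains only in naive cells and 4047 only after 2 divisions, the reverse of the reported order, and 2553 and 2678 ends. Ends listed only in naive cells numbered 1424 without A-rich ends, and ends within 50 nt of an annotated end numbered 1281 in naive cells and 1679 after 2 divisions. Splice switches toward naive cells and 2 divisions were 83 and 68 when 2 isoforms per library sufficed, 1 and 0 when 5 were needed, and 6 toward naive cells without A-rich ends. Genes with no shared annotated first exon were 42 when 1 isoform per library sufficed and 0 when 3 were needed. Genes with no shared 3′ end were 0 in both directions without A-rich ends, because none of the 12 then kept 2 isoforms in each library, and 7 with the main end downstream after 2 divisions when ends were merged within 10 nt.

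Among lists, members with at least 2 isoforms that were listed only after 2 divisions numbered 20 for mitosis, 7 for DNA replication and 5 for sterol synthesis. Those only in naive cells numbered 3 for quiescence, 5 for T cell receptor signaling and 3 for B cell markers.

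No paired analysis was possible because there was 1 library per condition, and for the same reason no library was left out in turn. Without read counts, a feature that was not listed is not known to be absent.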
